A study of Mus musculus with 6 samples.

Results

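NF-kappaB is the transcription factor family that carries inflammatory and antiviral signals to the nucleus, and 10 of its genes were examined in melanoma cells depleted of OSGEP. The genes were taken by symbol from the table of 55487 genes: the subunit genes Nfkb1, Nfkb2, Rela and Relb, the inhibitors Nfkbia, Nfkbib, Nfkbie and Tnfaip3, and the kinase genes Ikbkb and Chuk. Each symbol matched 1 row, and all 10 genes had enough counts to be tested, among 12669 tested genes. B16F10, a mouse melanoma line, was infected with lentivirus carrying a scrambled hairpin (shCtr, labelled WT, n = 3) or the OSGEP hairpin numbered 2 (shOSGEP, labelled KD OSGEP, n = 3), and polyA RNA was sequenced from 3 infections per group. Both groups thus carried a virus and, per the methods of the study, were selected with puromycin. A single hairpin was sequenced, so effects of this hairpin and of OSGEP loss cannot be told apart. OSGEP is the catalytic subunit of KEOPS, which modifies tRNA, and the study asked how its loss in tumour cells raises an immune response.

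In resting cells, dimers of Rel-homology subunits are held in the cytoplasm by IkB proteins. On the canonical route the IKK complex, with the kinases encoded by Ikbkb and Chuk, marks IkB for degradation and frees dimers that contain the Rela or Nfkb1 product. On the non-canonical route the Chuk product drives processing of the Nfkb2 precursor, whose mature form pairs with Relb. Several of these genes, among them Nfkbia, Tnfaip3, Relb and Nfkb2, are textbook targets of NF-kappaB itself, so that their mRNAs are often read as feedback of the pathway. The activity of the pathway rests on protein modification and localisation, which mRNA counts do not measure.

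The libraries held 18915587 to 29487384 counts. Osgep was at 20.6, 58.6 and 21.8 CPM (counts scaled to library size by TMM) in the controls and 4.28, 0.542 and 5.52 CPM after depletion, without overlap, which matched the labels. The libraries of replicate 2 were less alike than the other same-numbered pairs. Across genes, the log2 CPM of a control and its same-numbered shOSGEP library correlated at 0.982 and 0.986 for replicates 1 and 3, but 0.870 for replicate 2. The 8 melanoma markers Mitf, Pmel, Tyr, Dct, Tyrp1, Mlana, Sox10 and Slc45a2 were all expressed. Their summed level was 17700 to 31500 CPM in shCtr, 16100 and 18900 CPM in shOSGEP replicates 3 and 1, and 3700 CPM in shOSGEP replicate 2. In bulk libraries, fewer cells of a type and less RNA per cell cannot be told apart. The 9 leukocyte markers summed to at most 0.504 CPM in any library, with Ptprc, Cd3e, Cd8a, Adgre1, Itgam and Ncr1 at 0 throughout. That highest sum, in shOSGEP replicate 2, came from 13 counts of Csf1r. The 4 endothelial markers summed to at most 0.349 CPM, with Cdh5 and Kdr at 0. The 5 fibroblast markers summed to 5.11 to 11.2 CPM in shCtr and 13.0 to 19.5 CPM in shOSGEP, nearly all of it Pdgfra and Pdgfrb, with Dcn at 0. The part of these library differences in the results below was not tested.

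The promoters of NF-kappaB's own targets can carry kappaB motifs, the sites these dimers bind. Those found in the members are shown because several members are themselves textbook targets. RefSeq promoters of GRCm38.p6, which span 250 bases before to 50 after a start site, were matched by symbol for 7 of the 10 genes. Nfkb1, Relb and Ikbkb were not matched. The 10-base kappaB consensus was searched on both strands and was found in promoters of Tnfaip3, Nfkbia, Nfkbie and Nfkb2, and not in these windows of Nfkbib, Rela or Chuk. Of all 32851 promoters, 4.51% held it. Among promoters of the target genes described last, 13 of 42 held it (31.0%). Promoters of the other regulators held it in 7 of 33 (21.2%), and those of the adaptor and ubiquitin ligase genes in 4 of 33 (12.1%). The lines below give 30 bases around a match, 5′ to 3′ on the strand of the gene, with the matched bases in capitals. They lie at chr10:19015403-19015432 and chr10:19015516-19015545 (minus strand, Tnfaip3), chr12:55492657-55492686 (minus, Nfkbia), chr17:45555584-45555613 (plus, Nfkbie), and chr19:46304689-46304718, chr19:46304716-46304745, chr19:46305449-46305478 and chr19:46305695-46305724 (plus, Nfkb2).
Tnfaip3, match starting 12 bases before the start site: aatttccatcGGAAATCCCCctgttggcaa
Tnfaip3, match starting 125 bases before the start site: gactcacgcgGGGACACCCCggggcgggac
Nfkbia, match starting 29 bases before the start site: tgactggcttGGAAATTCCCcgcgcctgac
Nfkbie, match starting 106 bases before the start site: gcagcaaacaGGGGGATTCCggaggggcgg
Nfkb2, overlapping matches starting 39 bases before a start site: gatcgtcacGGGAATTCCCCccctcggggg
Nfkb2, match starting 11 bases before the same start site: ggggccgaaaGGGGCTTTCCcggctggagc
Nfkb2, match starting 236 bases before a start site further downstream: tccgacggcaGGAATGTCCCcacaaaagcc
Nfkb2, match starting at base 11 from a start site further downstream: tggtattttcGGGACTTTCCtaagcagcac

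The nearer Tnfaip3 window and 3 of the 4 Nfkb2 windows, all but that 236 bases before a start site, also overlap exons of annotated transcripts of the same genes (GENCODE M21). The first 3 Nfkb2 windows overlap an exon of another gene model, and the other Tnfaip3 window and those of Nfkbia and Nfkbie overlap no exon. Genes with a matched motif did not share 1 direction of change: as detailed below, log2 fold changes (shOSGEP against shCtr) were 1.72 for Tnfaip3, 0.42 for Nfkbia, -0.12 for Nfkbie and 0.01 for Nfkb2. A match describes the letters in these windows only.

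Across the whole transcriptome, the quasi-likelihood test of edgeR with Benjamini-Hochberg adjustment called 0 of 12669 genes (0.0%) with the adjusted p below 0.05, whereas 256 had an unadjusted p below 0.05. Osgep itself was not called by edgeR, with a log2 fold change of -3.29 (SE 0.876, unadjusted p = 0.00524 in edgeR). The absence of a call in this fit therefore does not show that a gene was unchanged. With DESeq2, 17 genes (0.104% of those with an adjusted p) were called. Osgep was among them (adjusted p = 0.0339 in DESeq2), and no member was. The study instead used a log2 fold change beyond 0.5 with an unadjusted p under 0.05. Here that threshold was applied to the p of this edgeR fit, so the calls need not be those of the study. It was passed by 2.02% of the tested genes, 1.59% higher and 0.426% lower in shOSGEP. Of the 10 members, 1 passed that threshold, Tnfaip3, which was higher. It was also the only member whose groups did not overlap, where 6.36% of all genes had groups without overlap. Each member had an adjusted p of 1.00 in edgeR. The median log2 fold change of the members was 0.15, beside -0.03 over all genes tested, with 6 members higher and 4 lower. Without shOSGEP replicate 2 the median of the members was -0.06, and with the replicate 2 library of each group left out it was 0.08.

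**Figure D1:**
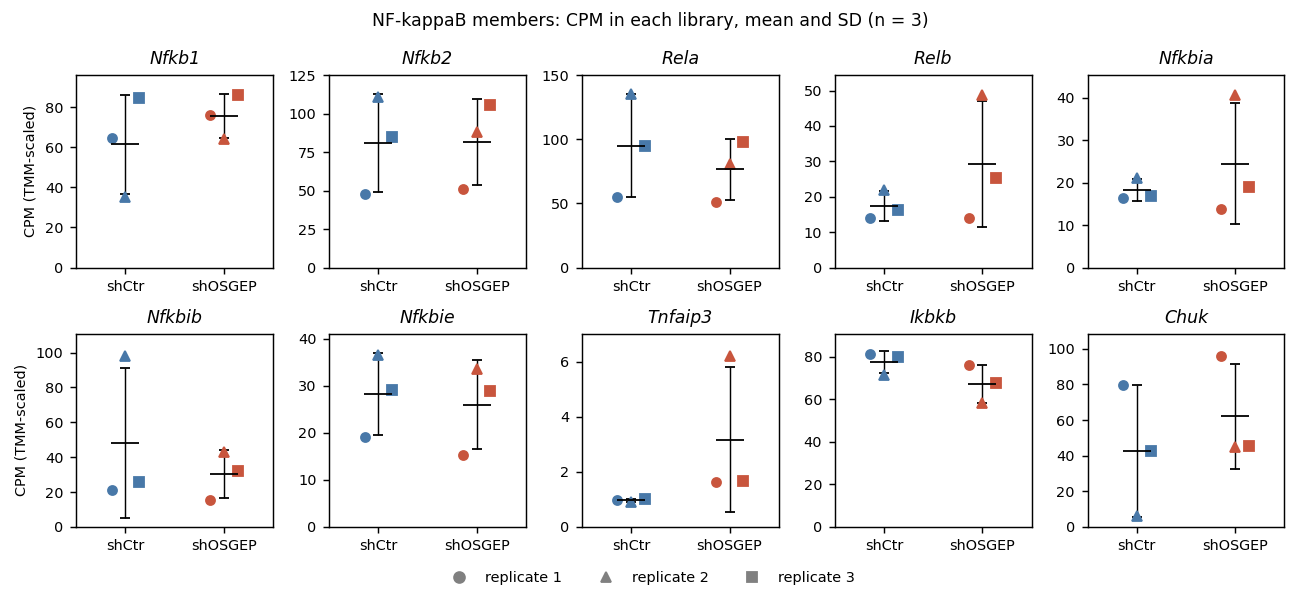
Level of the 10 members in each library in CPM (y axis, linear from 0), with shCtr in blue and shOSGEP in red, symbols for the replicate number, and black bars for the mean and SD (n = 3). Only Tnfaip3 has groups without overlap, and the replicate 2 triangle is the highest shOSGEP library for Relb, Nfkbia, Nfkbib, Nfkbie and Tnfaip3.

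Among the subunit genes, Relb showed the largest difference. Relb (ENSMUSG00000002983, minus strand of chromosome 7, 19606217 to 19629438, GRCm38) encodes the subunit that partners the processed Nfkb2 product. It was at 13.9, 22.0 and 16.2 CPM in the controls and 13.9, 48.6 and 25.2 CPM after OSGEP depletion, in order of replicate number. The groups overlapped, since shOSGEP replicate 1 was as low as its shCtr counterpart, while replicate 2 was higher than all other libraries. Its log2 fold change was 0.75 (SE 0.541, unadjusted p = 0.200 in edgeR). Within replicate numbers 1, 2 and 3 the log2 ratios were 0.00172, 1.15 and 0.64. Without shOSGEP replicate 2 the log2 fold change was 0.20, and with the replicate 2 library of each group left out it was 0.39. With offsets for GC content and transcript length it was 0.95 (SE 0.416, unadjusted p = 0.0526, adjusted p = 0.849 in edgeR).

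Rela encodes the transactivating subunit of the canonical dimer, and its mRNA was not separated between the groups. Rela (ENSMUSG00000024927, plus strand of chromosome 19, 5637483 to 5648130) was at 55.3, 135 and 94.9 CPM in the controls and 51.1, 80.9 and 97.8 CPM after OSGEP depletion. The ranges overlapped widely, and the spread within each group was wider than the gap between the means. The log2 fold change was -0.31 (SE 0.473), and it was 0.03 without shCtr replicate 2.

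Nfkb1 encodes the precursor of the DNA-binding partner of Rela. Nfkb1 (ENSMUSG00000028163, minus strand of chromosome 3, 135584655 to 135691547) was at 64.6, 35.0 and 84.5 CPM in the controls and 76.2, 64.1 and 86.2 CPM after OSGEP depletion. All 3 same-numbered comparisons were higher in shOSGEP, by 0.24, 0.87 and 0.03 on the log2 scale, where 17.6% of all genes were higher in all 3. The groups nevertheless overlapped, the low value of shCtr replicate 2 widened the control range, and the log2 fold change was 0.30 (SE 0.445). With that library left out it was 0.02.

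Nfkb2, the precursor gene of the non-canonical route, had the smallest difference of the 10. Nfkb2 (ENSMUSG00000025225, plus strand of chromosome 19, 46304320 to 46312385) was at 47.5, 111 and 84.8 CPM in the controls and 51.1, 88.3 and 105 CPM after OSGEP depletion. The log2 fold change was 0.01 (SE 0.477), and its sign turned under RLE scaling (-0.01). The gene overlaps Psd on the opposite strand, and because the library kit was not stated to keep strand, the reads of such pairs cannot be fully separated. Relb and Nfkb2, partners on the same route, thus had log2 fold changes of 0.75 and 0.01, whose difference was not tested.

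The make-up of the subunit pool was compared per length, as RPKM (CPM divided by the length of the longest annotated transcript in kilobases). Rela held the largest share of the summed RPKM of the 5 Rel-homology genes in every library, at 38.1%, 53.0% and 42.0% in shCtr and 33.8%, 35.7% and 38.9% in shOSGEP. Rel, the fifth gene of the family and mainly a lymphoid subunit, held at most 1.72%. Relb held 7.95%, 7.15% and 5.95% in shCtr, and 7.63%, 17.8% and 8.31% in shOSGEP. The share in shOSGEP replicate 1 lay within the control range, that in replicate 3 slightly above it, and that in replicate 2 well above all other libraries. Nfkb1 held 29.2%, 9.00% and 24.5% in shCtr and 33.0%, 18.5% and 22.4% in shOSGEP, with the lowest share of each group in replicate 2.

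**Figure D2:**
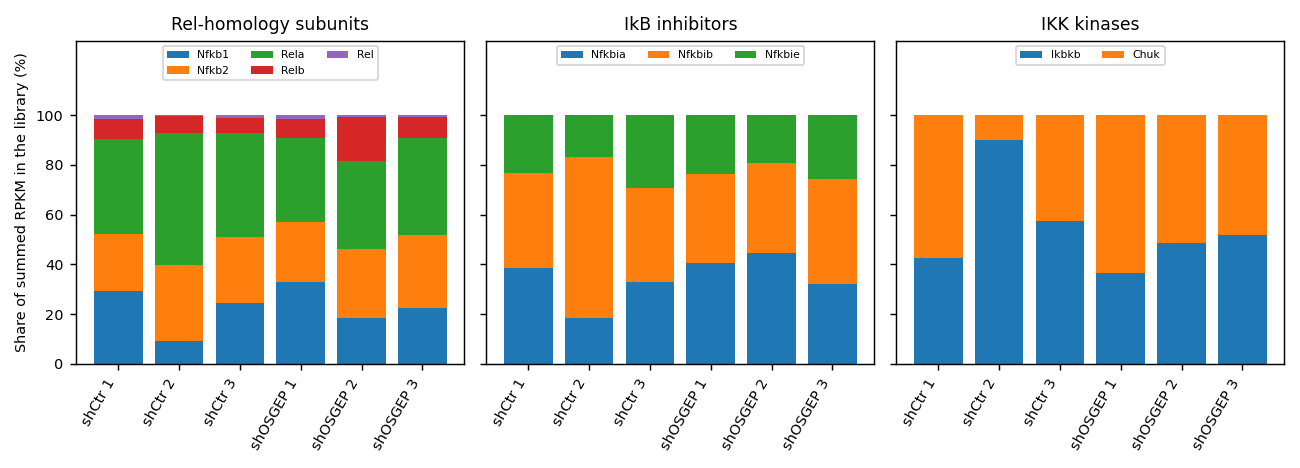
Share of each gene in the summed RPKM of its class (y axis, percent) in each of the 6 libraries (x axis, group and replicate number). The Relb share is widest in shOSGEP replicate 2 at 17.8%, and Chuk takes 10.1% of the kinase pair in shCtr replicate 2 against 42.5% to 63.5% elsewhere.

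The inhibitors did not move as a class. Nfkbia encodes IkB alpha, which is degraded on pathway activation and resynthesised as a feedback brake. Nfkbia (ENSMUSG00000021025, minus strand of chromosome 12, 55489410 to 55492647) was at 16.5, 21.1 and 17.0 CPM in the controls and 13.7, 40.6 and 18.9 CPM after OSGEP depletion. The control libraries were tight, whereas the shOSGEP libraries included both the lowest and the highest value of the 6. The log2 fold change was 0.42 (SE 0.510, unadjusted p = 0.428 in edgeR), and the log2 ratios within replicate numbers were -0.26, 0.94 and 0.16. Without shOSGEP replicate 2 the direction turned, to -0.13.

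Nfkbib encodes IkB beta, an inhibitor with slower turnover. Nfkbib (ENSMUSG00000030595, minus strand of chromosome 7, 28758251 to 28767512, overlapping Sirt2 and Ccer2 on the opposite strand) was at 21.4, 97.9 and 25.5 CPM in the controls and 15.6, 43.2 and 32.2 CPM after OSGEP depletion. Its log2 fold change of -0.67 (SE 0.685) was the lowest of the members. Within replicate numbers 1, 2 and 3 the log2 ratios were -0.45, -1.18 and 0.33. Without shCtr replicate 2 the log2 fold change was 0.37, and with the replicate 2 library of each group left out it was 0.036. Nfkbie, the gene of IkB epsilon (ENSMUSG00000023947, plus strand of chromosome 17, 45555703 to 45563169), was at 19.1, 36.4 and 29.0 CPM in the controls and 15.3, 33.5 and 28.9 CPM after OSGEP depletion. It was lower in shOSGEP in 3 of 3 same-numbered comparisons, but by only 0.32, 0.12 and 0.01 in absolute log2 ratio, where 17.2% of all genes were lower in all 3. The log2 fold change of Nfkbie was -0.12 (SE 0.475), and upper-quartile scaling gave 0.01. Together the 3 IkB genes summed to 27.2, 73.0 and 32.8 RPKM in shCtr and 21.4, 57.9 and 37.2 RPKM in shOSGEP, so that replicate 2 was highest in both groups.

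Tnfaip3 was the member with the largest difference, and also the one with the fewest counts. It encodes a ubiquitin-editing enzyme that ends signalling upstream of IKK and is induced by NF-kappaB as negative feedback. Tnfaip3 (ENSMUSG00000019850, minus strand of chromosome 10, 19000910 to 19015657) had 23, 18 and 22 counts in shCtr and 35, 160 and 39 counts in shOSGEP. These correspond to 0.977, 0.885 and 1.01 CPM against 1.63, 6.20 and 1.65 CPM, so every shOSGEP library lay above every shCtr library. The exact Clopper-Pearson 95% intervals, which cover counting error only, reached from 0.524 to 1.54 CPM over the shCtr libraries. They were 1.13 to 2.26 CPM in shOSGEP replicate 1, 5.28 to 7.24 CPM in replicate 2 and 1.18 to 2.26 CPM in replicate 3. The intervals of replicates 1 and 3 therefore overlapped those of the controls, whereas that of replicate 2 was clear of all other libraries.

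The mean level of Tnfaip3 was 0.959 ± 0.0667 CPM in shCtr and 3.16 ± 2.63 CPM in shOSGEP (SD, n = 3). The log2 fold change was 1.72 (SE 0.695), with an unadjusted p of 0.0378 and an adjusted p of 1.00 in edgeR over all genes. The two-sided exact permutation test on mean log2 CPM gave p = 0.1, the smallest that 3 libraries against 3 allow. All 3 same-numbered comparisons were higher, with log2 ratios of 0.74, 2.81 and 0.71. Without shOSGEP replicate 2 the log2 fold change was 0.79 (SE 0.548, unadjusted p = 0.200 in edgeR), and with the replicate number as a block it was 1.41 (unadjusted p = 0.0607, adjusted p = 0.741 in edgeR), which ended the call at the study's threshold. The 19 alternative fits reused these libraries, so their shared direction is not separate support. All gave a higher level in shOSGEP, from 0.72 to 2.06, and 9 kept the gene past that threshold. The smallest adjusted p among them was 0.0726, in limma-voom with sample quality weights and the replicate block.

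The kinase genes did not pass either. Ikbkb, the gene of the catalytic subunit that dominates the canonical route (ENSMUSG00000031537, minus strand of chromosome 8, 22659212 to 22706589), was the steadiest member. It was at 81.3, 71.7 and 79.9 CPM in the controls and 76.1, 58.3 and 67.8 CPM after OSGEP depletion, so that its highest library exceeded its lowest 1.39-fold. It was lower in 3 of 3 same-numbered comparisons, with a log2 fold change of -0.20 (SE 0.365). It kept this direction in 19 of 19 alternatives, which reused the same libraries, from -0.30 to -0.10. The groups overlapped, and p was 0.2 in the two-sided exact permutation test.

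Chuk, which encodes the other kinase and is required on the non-canonical route, was the least steady. Chuk (ENSMUSG00000025199, minus strand of chromosome 19, 44073335 to 44107480) was at 79.9, 5.85 and 42.7 CPM in the controls and 95.9, 44.6 and 45.7 CPM after OSGEP depletion. The highest library exceeded the lowest 16.4-fold, and the lowest was again shCtr replicate 2. The log2 fold change was 0.54 (SE 0.810), and without shCtr replicate 2 it was 0.01. Within replicates 1 and 3 the log2 ratios were 0.26 and 0.10, against 2.93 within replicate 2. The pair thus changed its ratio in 1 control library, where Ikbkb held 89.9% of their summed RPKM, against 36.5% to 57.5% in the other 5 libraries.

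**Figure D3:**
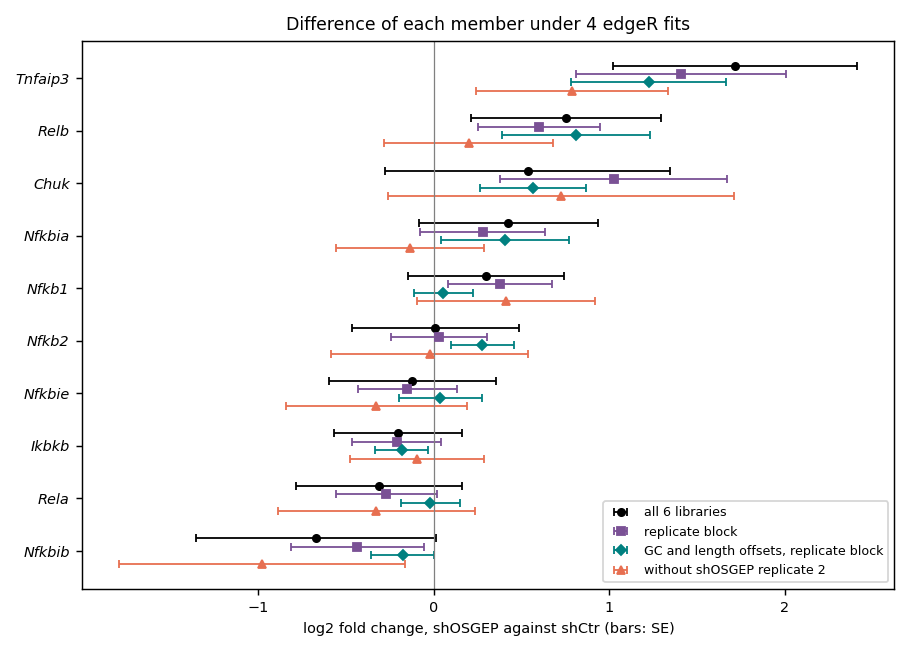
Log2 fold change of each member, shOSGEP against shCtr (x axis), with SE bars from 4 edgeR fits marked by colour: all 6 libraries, the replicate block, GC and length offsets with the block, and without shOSGEP replicate 2. Tnfaip3 lies highest in every fit, from 0.79 to 1.72, and Nfkbia changes side when shOSGEP replicate 2 is left out.

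By level per length, Rela led in both groups, at 35.0 ± 14.7 RPKM in shCtr and 28.2 ± 8.70 RPKM in shOSGEP (SD, n = 3). Tnfaip3 came last, at 0.155 ± 0.0108 and 0.510 ± 0.425 RPKM. The other 8 members lay between 5.30 and 23.4 RPKM on average in shCtr and between 8.61 and 21.2 RPKM in shOSGEP. In that order, neighbours overlapped in their ranges over the 3 libraries of a group, except that Tnfaip3 lay below the next member, Relb in shCtr and Nfkbie in shOSGEP. The 9 members above Tnfaip3 could therefore not be ranked singly.

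The members that departed most in shCtr replicate 2 differed in base composition. In shCtr replicate 2, Chuk, whose longest transcript is 41.3% GC, deviated from the mean of the other shCtr libraries by -3.32 in log2 CPM. Nfkb1, at 44.9% GC, deviated by -1.08. By contrast Nfkbib, at 58.8% GC, deviated by 2.07, and Rela and Nfkb2, both at 59.4%, by 0.90 and 0.80. The same order held over all genes tested, whose median deviation was -1.97 for the 2470 genes from 40% to under 45% GC and 1.15 for the 2327 genes from 55% to under 60%. Tnfaip3 (47.1% GC) and Ikbkb (51.2% GC) both deviated by -0.17. With offsets for GC content and length together with the replicate block, the log2 fold changes were 0.06 for Nfkb1, -0.18 for Nfkbib and -0.02 for Rela. These were nearer 0 than in the fit without offsets and block. Chuk and Nfkb2 were at 0.57 and 0.28, further from 0 than the 0.54 and 0.01 of that fit. With the offsets and block, Tnfaip3, Relb and Nfkbia were at 1.22, 0.81 and 0.40.

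**Figure D4:**
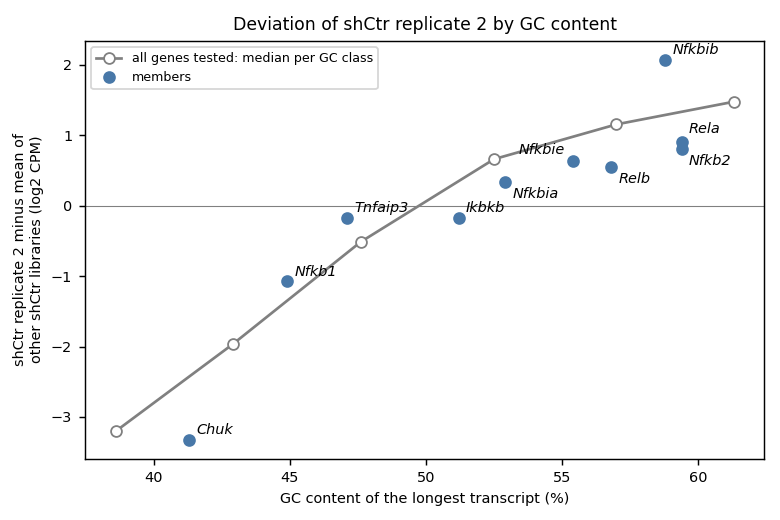
Deviation of shCtr replicate 2 from the mean of the other shCtr libraries in log2 CPM (y axis) against the GC content of the longest transcript in percent (x axis), for the 10 members (blue) and as medians of all tested genes in 6 GC classes (open circles, each at its median GC). The medians run from -3.20 in the class under 40% GC to 1.47 in the class from 60% up, and the members run from Chuk at -3.32 to Nfkbib at 2.07.

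The genes that connect receptors to IKK did not show a common shift. Of 32 receptor, adaptor and ubiquitin ligase genes listed, 28 were tested, and 14 had a higher and 14 a lower level, with a median log2 fold change of 0.03. None passed the study's threshold or an adjusted p under 0.05 in edgeR, and none had an unadjusted p under 0.05. DESeq2 called none either. The smallest p belonged to Irak2, Rbck1, Ube2v1, Tnfrsf12a and Tab2. Irak2, a kinase that relays signals of the interleukin 1 and Toll-like receptors, was at 20.5, 20.4 and 18.1 CPM in shCtr and 25.3, 67.6 and 23.2 CPM in shOSGEP, without overlap. Its log2 fold change was 0.97 (SE 0.520), and 0.32 without shOSGEP replicate 2. Ube2n, an enzyme that builds the ubiquitin chains of this pathway, was the other gene without overlap, with a log2 fold change of -0.24. Tnfrsf12a, the receptor of the cytokine TWEAK, had a log2 fold change of 0.96 (SE 0.768), and shOSGEP replicate 2 was again its highest library, at 258 CPM. Without that library the value was -0.23, and with the replicate 2 library of each group left out it was 0.45. Rbck1, a subunit of the linear ubiquitin ligase, and Ube2v1, the partner of Ube2n, had log2 fold changes of -0.95 and -0.80, which rested on shCtr replicate 2 at 552 and 769 CPM. Tab2, an adaptor of the kinase TAK1, had 0.61 (SE 0.616), with its lowest library in shCtr replicate 2 at 17.4 CPM, and 0.14 without that library.

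Of 31 further subunits, IKK-related kinases, atypical inhibitors and deubiquitinases, 30 were tested, 19 higher and 11 lower, with a median log2 fold change of 0.03. Again none passed either threshold or an unadjusted p under 0.05 in edgeR, and DESeq2 called none. Bcl3, an atypical IkB protein that acts in the nucleus, was at 1.57, 1.87 and 1.71 CPM in shCtr and 1.68, 4.69 and 4.33 CPM in shOSGEP. Its log2 fold change was 1.05 (SE 0.578), higher in 3 of 3 same-numbered comparisons, and 0.83 without shOSGEP replicate 2. Nkiras1, a small GTPase-like protein that binds IkB, had 1.10 (SE 0.598) and overlaps Rpl15 on the opposite strand. Its log2 fold change was 0.45 with shOSGEP replicate 2 left out, and 0.27 with the replicate 2 library of each group left out. Rnf11, Otulin and Pdlim2, regulators of ubiquitin chains or of Rela stability, had 0.81, -0.54 and 0.43. Without shCtr replicate 2 the values of Rnf11 and Otulin were 0.35 and 0.03, and without shOSGEP replicate 2 that of Pdlim2 was 0.02. With the replicate 2 library of each group left out, Pdlim2 was at 0.36. Ikbkg, the regulatory subunit of IKK, was the only gene of this list without overlap, with 0.24 (SE 0.367). It overlaps G6pdx on the opposite strand, and after GC and length offsets with the block the value was -0.13. Map3k14 and Ikbke, the NF-kappaB-inducing kinase and an IKK-related kinase, both had 0.02.

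Among NF-kappaB target genes other than the members, the levels leaned higher. The list was chosen with earlier results of these data known, so its comparison with all genes is a description only. Of 50 listed genes 28 were tested, 24 were higher and 4 lower, and the median log2 fold change was 0.33, beside -0.03 over all genes. In edgeR 4 targets passed the study's threshold, all higher, where 1.59% of all genes did, and none passed an adjusted p under 0.05. Groups without overlap were found for 5 targets higher and 1 lower, beside 3.49% and 2.87% of all genes. DESeq2 called none at an adjusted p under 0.05. Limma-voom with sample quality weights and the replicate block called 7 of them, all higher, where it called 11.1% of all genes and 6.73% as higher. Without shOSGEP replicate 2 the median was 0.08 and 0 targets passed the study's threshold. With the replicate 2 library of each group left out, the median was 0.19 and 2 targets passed. The median log2 ratio of the targets was 0.13 between the libraries of replicate 1, 0.56 for replicate 2 and 0.28 for replicate 3.

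The 4 targets past the threshold were Plk2, Csf1, Lif and Cxcl10, none with an adjusted p under 0.05 in edgeR. Plk2, a stress-induced kinase also known as a target of p53, was at 5.69, 4.28 and 6.32 CPM in the controls and 9.63, 38.9 and 13.0 CPM after OSGEP depletion, with a log2 fold change of 1.92 (SE 0.625). Csf1, the growth factor of macrophages, was at 25.6, 19.3 and 31.3 CPM in the controls and 47.2, 110 and 38.8 CPM after OSGEP depletion, with 1.36 (SE 0.518). Lif, a cytokine of the interleukin 6 family, was at 0.807, 1.03 and 0.415 CPM and at 1.40, 7.32 and 1.31 CPM, with 2.15 (SE 0.843). In each of these genes every shOSGEP library exceeded every shCtr library, and replicate 2 exceeded all others. Cxcl10, a chemokine that attracts T cells and is also induced by interferon, was at 7.78, 4.03 and 5.16 CPM in the controls and 9.96, 17.4 and 11.2 CPM after OSGEP depletion, with 1.18 (SE 0.494). The log2 fold changes of Plk2, Csf1, Lif and Cxcl10 were 1.07, 0.77, 0.87 and 0.92 without shOSGEP replicate 2. With the replicate block the call of Csf1 was lost (log2 fold change 1.22, unadjusted p = 0.0533, adjusted p = 0.741 in edgeR), as with GC and length offsets added, while Plk2, Lif and Cxcl10 stayed past the threshold. Sdc4, a cell-surface proteoglycan and the fifth by p, had 0.75 (SE 0.453), 0.45 with shOSGEP replicate 2 left out and 0.22 with the replicate 2 library of each group left out. Tnfaip2, the fifth target higher without overlap, had 0.45 (SE 0.376), and Ier5, the target lower without overlap, had -0.28.

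**Figure D5:**
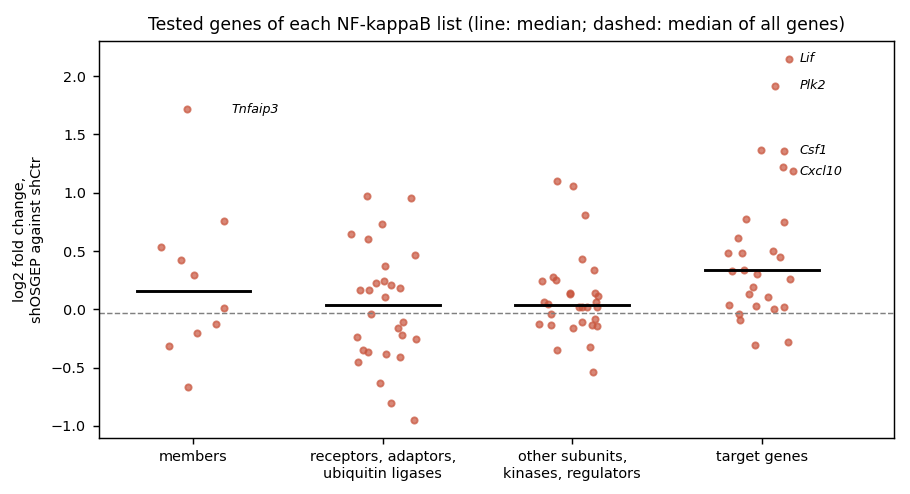
Log2 fold change (y axis) of each tested gene in the 4 NF-kappaB lists (x axis), with black lines at list medians and a dashed line at the median of all genes tested, -0.03. Names mark the genes with an unadjusted p under 0.05 in edgeR: Tnfaip3 among members, and Lif, Plk2, Csf1 and Cxcl10 among targets.

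The remaining 22 targets had too few counts to be tested, and 4 of them, Cxcl2, Cxcl5, Il1b and Ptgs2, had no count in any library. Of the 18 with a count, 13 had their highest CPM in shOSGEP replicate 2, which was 72.2%. The same held for 16 of the 28 tested targets (57.1%), for 3 of the 10 members (Relb, Nfkbia and Tnfaip3) and for 20.1% of all genes tested. The 18 were below the count filter, and the share among all genes below it was not computed. More members, 4 of 10, had their highest CPM in shCtr replicate 2, as did 35.7% of all genes, so the members' counts were near the background for both libraries. This comparison was chosen after the values were seen and is a description of 1 library. Among the 18, Ccl2, a chemokine of monocytes, had 0, 0 and 1 counts in shCtr and 1, 53 and 0 counts in shOSGEP. Fas, a death receptor, had 6, 2 and 1 against 23, 85 and 6 counts, and Il6 had 0, 0 and 1 against 1, 9 and 0 counts. Tnf, the archetypal inducer of the pathway, had at most 5 counts in any library. Ccl2, Fas and Il6 were picked from the 18 outside the rule for naming genes. The library with their highest counts, shOSGEP replicate 2, had the lowest summed melanoma markers and the lowest Osgep of the 6 libraries. Whether these are related was not tested.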

How the data were processed

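Poly(A) RNA of 6 B16F10 libraries was sequenced in paired reads of 100 bases. Per the labels and the methods, the authors trimmed reads with TrimGalore, aligned them to GRCm38 with STAR 2.6.1d and quantified genes with Salmon 1.4.0. The values deposited by the authors are estimated counts per gene, written as whole numbers, without scaling or filter. The annotation release was not given in the sources used here. Positions, lengths and GC contents came from GENCODE M21.

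Groups and replicate numbers followed the labels. Genes were kept by filterByExpr (minimum count 10, minimum total 15), scaled by TMM and tested on the whole table with edgeR 4.0.16 (R 4.3.3), two-sided, with Benjamini-Hochberg adjustment. The SE is the log2 fold change over the square root of F. The fits were run on simulated counts with less spread than these libraries and no pairing or GC trend. That run does not show how the fits perform on these data. Deviations of same-numbered libraries from their group means correlated at 0.811, 0.557 and 0.196, all above the limit of 0.1, although different numbers reached 0.491. Among the fits, the shared number served as a block in alternatives only. The main fit and the permutation test compared the groups without a block, so their p-values leave out any pairing. No label says what a number marks beyond separate infections, and p-values measure the spread between these libraries. The members and lists were chosen with earlier results of these data known. The genes named by rule were Osgep, the members and, in each list, the 5 tested genes with the smallest p. Outside this rule, Ube2n, Ikbkg, Tnfaip2 and Ier5 were named for groups without overlap. Map3k14, Ikbke, Ccl2, Fas, Il6 and Tnf were also named outside it. Alternatives were DESeq2 1.42.0, limma-voom (limma 3.58.1) with quality weights, other scalings and filters, the replicate block, offsets from natural splines (5 degrees of freedom each) of GC content and log2 length, and leaving out libraries. Depth gives a floor of 3 counts, or 0.116 to 0.147 CPM.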

Additional observations from a re-analysis of the deposited data

How the results depend on the processing

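All 19 alternatives were fitted. Where no reason is named, the cause was not tested. At an adjusted p under 0.05, edgeR called 0 genes in every fit it was used for, DESeq2 17, limma-voom with quality weights 3, and the same with the replicate block 1403 (members 0, adaptor and ubiquitin ligase genes 1, other regulators 1, targets 7). The last gave replicate 2 weights of 0.112 and 0.113 and rested mostly on the other pairs. At the study's threshold, 256 genes passed as reported, against 470 with DESeq2 (328 higher, 142 lower), 560 with limma-voom and quality weights (424, 136), 1442 with these and the block (945, 497), 599 without a filter (430, 169, more genes tested), 634 with GC and length offsets (431, 203) and 824 with these and the block (478, 346). Leaving out libraries gave 67 to 453 genes, at 67 for shOSGEP replicate 2 left out, 390 for shOSGEP replicate 3, 453 for shCtr replicate 1, 167 for shCtr replicate 3 and 163 for both libraries of replicate 3. The single member past that threshold, Tnfaip3, fell to 0 members with the replicate block, GC and length offsets, or limma-voom with quality weights, and to 0 or 1 when libraries were left out: 0 when a shCtr library, shOSGEP replicate 2 or both libraries of a number were left out. Among adaptor genes GC and length offsets passed 2, and 1 with the block. Among other regulators 1 passed with the offsets and block, and 1 with limma-voom, weights and block. Among targets 7 passed without a filter (46 tested), and 0 to 4 when libraries were left out.

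Directions turned as follows, in log2 fold change. Nfkb2 was at -0.010 with DESeq2, -0.011 with RLE scaling and -0.26 to 0.30 with libraries left out, negative without both libraries of replicate 1 (-0.0064) or 3 (-0.19) and without shCtr replicate 1 (-0.26), shOSGEP replicate 2 (-0.022) or 3 (-0.22). Rela ranged from -0.58 to 0.029 with libraries left out, the latter without shCtr replicate 2. Nfkbia was at -0.11 with limma-voom, weights and block, and -0.13 to 0.71 with libraries left out, at -0.030 without both libraries of replicate 2 and -0.13 without shOSGEP replicate 2. Nfkbib was at 0.028 with limma-voom and weights, and -1.03 to 0.37 with libraries left out, at -1.02 without shCtr replicate 1, 0.036 without both libraries of replicate 2 and 0.37 without shCtr replicate 2. Nfkbie was at 0.064 with the offsets, 0.038 with offsets and block, 0.0093 with upper-quartile scaling, and -0.34 to 0.15 with libraries left out, at 0.11 without shCtr replicate 2 and 0.15 without shOSGEP replicate 1. Rbck1 ranged from -1.42 to 0.13, at -1.32 without shCtr replicate 1, 0.058 without both libraries of replicate 2 and 0.13 without shCtr replicate 2. Otulin ranged from -0.80 to 0.028, the latter without shCtr replicate 2, and Tnfrsf12a from -0.23 to 1.67, the former without shOSGEP replicate 2. Upper-quartile scaling moved the median of all genes from -0.03 to 0.07. With the replicate block alone, edgeR passed 373 genes and 3 targets at the study's threshold, with Csf1 lost. Beside these and the loss of Tnfaip3 given above, no count of calls in the lists changed under the block in edgeR.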
